A study of Mus musculus with 21 samples.

Results

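Neutrophils carry preformed granule proteins and large amounts of the calcium-binding pair S100A8 and S100A9, and their transcripts were followed here in whole mouse liver through 8 genes: S100a8, S100a9, Csf3r, Retnlg, Ngp, Camp, Ltf and Mpo. These 8 were chosen by symbol among the 52636 gene IDs of the count table, and all 8 passed the filter on low counts over the 3 groups. The study sequenced total RNA in 21 liver libraries of wild-type mice. The chow group held 5 livers, from mice kept on normal chow for 8 weeks, a point named week 0 in the labels. Another 8 livers came after 8 weeks and 8 after 16 weeks on CDA-HFD, a high-fat feed that lacks choline and takes its protein as set amino acids, used to bring about fatty liver with inflammation and scarring. The labels give no strain, sex or age. With no older chow livers, ageing and the longer feeding cannot be told apart at 16 weeks. Whether the chow mice matched the 8-week mice in age is not given either, so a difference in age cannot be set aside at 8 weeks.

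S100A8 and S100A9 form calprotectin, which neutrophils hold in their cytosol and monocytes also make. Csf3r is the receptor for granulocyte colony-stimulating factor and Retnlg encodes a resistin-like protein of granulocytes. The granule proteins are made in succession in the bone marrow: myeloperoxidase (Mpo) goes into the early azurophil granules, and lactotransferrin (Ltf), cathelicidin (Camp) and neutrophilic granule protein (Ngp) into the later specific granules. Mature neutrophils keep the proteins after most of the granule mRNA has gone, while transcripts of S100a8, S100a9 and Csf3r stay abundant in mature cells. In livers with steatohepatitis, neutrophils gather around fat-laden hepatocytes and beside macrophages.

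All 8 genes were higher after 8 weeks of CDA-HFD than on chow in the fit of all 21 libraries. They rose by 1.72 to 3.39 on the log2 scale, with a median of 2.64, against a median of 0.158 over all 17104 genes tested. In that comparison 51.3% of all genes passed the test (edgeR quasi-likelihood test, adjusted p under 0.05), 30.8% of all genes in the upward direction. The filter on low counts let Camp and Mpo in through the 16-week libraries: with only chow and 8-week libraries 6 of the 8 genes passed it, and those 6 were higher. Without any filter the adjusted p at 8 weeks was 0.0395 for Camp and 0.00466 for Mpo. After 16 weeks 6 of the 8 were higher than on chow, with a median over the 8 of 2.93, and S100a8 and S100a9 did not pass. There 51.9% of all genes passed, 29.4% upward, and the median over all genes was 0.0296. Ngp, Camp, Ltf and Mpo had at most 0.169 CPM in any chow library and passed the filter through the diet libraries. Their calls against chow are therefore not independent of the filter. Without any filter their adjusted p at 16 weeks was at most 0.00957 (edgeR). Between 16 and 8 weeks 21.6% of all genes passed, 10.6% upward and 11% downward, and of the 8 genes Ngp alone did, upward. The 2 comparisons with chow share their chow livers. Whole liver was sequenced, so that more neutrophils, more RNA per neutrophil and RNA of other cells cannot be told apart.

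**Figure D1:**
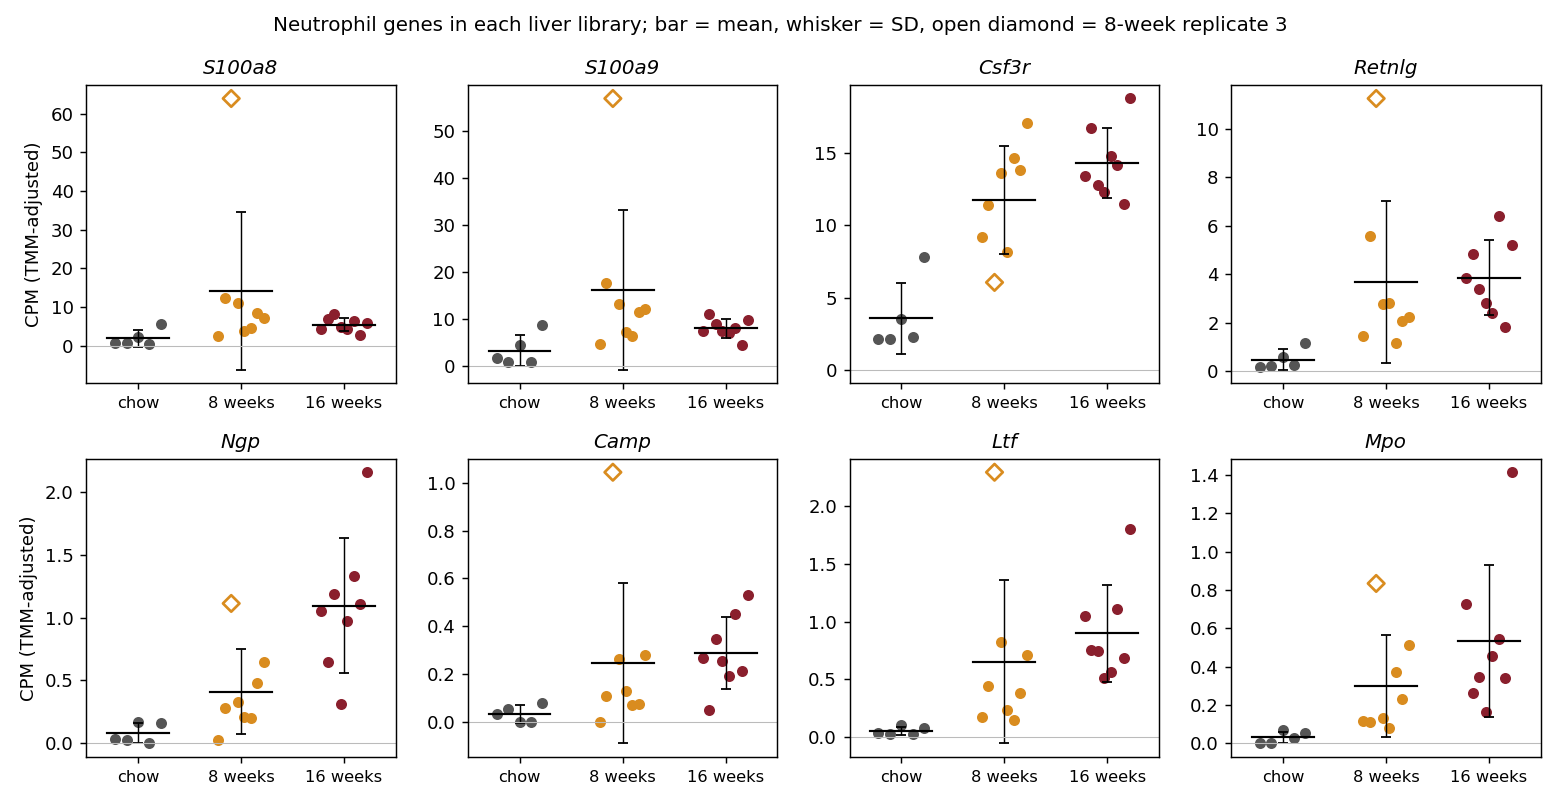
Level of each gene in every liver library, as TMM-adjusted CPM (counts scaled to library size) on linear axes, with the mean as a bar and the SD as a whisker for 5 chow, 8 8-week and 8 16-week libraries. Replicate 3 of the 8-week group, drawn as an open diamond, stands at 63.9 CPM for S100a8 but is the lowest 8-week library for Csf3r at 6.05 CPM.

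Total counts ran from 29037525 to 48901145 per library, and levels are given as CPM, counts scaled to the TMM-adjusted library size, a scaling that assumes most genes do not differ. Replicate 3 of the 8-week group had the lowest total and an adjustment factor of 0.4955, which raises its CPM above values scaled to its plain total. Scaling by total counts alone shifted the median change of all genes by 0.118 at 8 weeks, 0.528 at 16 weeks and 0.376 between the diet groups, and the share of passing genes that were higher went from 60.1% to 78.3%, from 56.6% to 89.5% and from 49% to 94.8%. Albumin mRNA lay between 58600 and 197000 CPM in every library. Transcripts of other tissues stood out in a few libraries. A sum of 12 genes of squamous epithelium reached 1752 CPM in 8-week replicate 3 and 291.6 CPM in 8-week replicate 6, while 16-week replicates 1, 7 and 4 held 261.9, 157.1 and 77.84 CPM, against 1.71 to 2.80 CPM on chow. A sum of 5 skeletal muscle genes reached 2144 CPM in 8-week replicate 3 and 297.5 CPM in chow replicate 5, against 0.666 to 10.1 CPM in the other chow livers. It was also 268.4 CPM in 8-week replicate 6 and 180.0 to 316.0 CPM in 16-week replicates 1, 4 and 7. A sum of 5 exocrine pancreas genes reached 6880 CPM in 8-week replicate 4 and 297.0 CPM in 8-week replicate 5, against 0.290 to 1.82 CPM on chow. Replicate numbers follow the order of listing and pair no animals, and the labels do not say how tissue was taken.

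S100a8 and S100a9 are neighbours on chromosome 3, on opposite strands and with 22596 bases between them. S100a8 (ENSMUSG00000056054) lies at chr3:90668978-90670035 on the plus strand and S100a9 (ENSMUSG00000056071) at chr3:90692632-90695721 on the minus strand (GRCm38, GENCODE M21). Because the pair moved together from library to library, their upstream sequences are printed here, 5′ to 3′ along each gene, from the RefSeq promoter table of GRCm38.p6. The stretch for S100a8 is chr3:90668821-90668977 on the plus strand and ends where the GENCODE gene begins, and that for S100a9 is chr3:90695722-90695971 on the minus strand. Capitals mark matches to the PU.1 core GAGGAAG, which in S100a8 lies on the opposite strand as CTTCCTC, and to the C/EBP core TTGCNNAA. PU.1 and the C/EBP family are transcription factors of myeloid cells.
S100a8: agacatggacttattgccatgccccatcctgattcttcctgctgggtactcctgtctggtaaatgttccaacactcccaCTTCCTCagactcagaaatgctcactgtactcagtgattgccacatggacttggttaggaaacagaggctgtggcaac
S100a9: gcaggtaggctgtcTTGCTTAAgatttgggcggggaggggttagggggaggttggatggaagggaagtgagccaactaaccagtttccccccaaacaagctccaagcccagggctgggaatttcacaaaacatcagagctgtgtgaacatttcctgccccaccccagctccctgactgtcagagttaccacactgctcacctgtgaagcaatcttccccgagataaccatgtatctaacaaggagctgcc

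The 250 bases before the RefSeq start held the C/EBP letters in 4 of the 8 genes (S100a9, Retnlg, Ltf and, 2 times, Ngp) and the PU.1 letters in 3 (S100a8, Csf3r and, 2 times, Mpo). Both strands were searched. The Csf3r match, 86 bases before the RefSeq start, and the Ngp match 11 bases before it lie inside the GENCODE gene. No member held both, and Camp held neither. Among 32536 RefSeq promoters the same window held the C/EBP letters in 9.57%, the PU.1 letters in 10.7% and both in 0.953%. A match to one was allowed to overlap a match to the other. A match in letters is a description, not a binding site.

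On chow, S100a8 stood at 0.699, 0.631, 2.33, 0.463 and 5.64 CPM in replicates 1 to 5. After 8 weeks its lowest, median and highest values were 2.39, 7.79 and 63.9 CPM, and after 16 weeks 2.81, 5.28 and 8.27 CPM. Chow replicate 5 was high enough to overlap both diet groups, with 5 of 8 libraries above it at 8 weeks and 4 of 8 at 16 weeks. The fitted log2 change was 2.83 ± 0.760 (SE) at 8 weeks (adjusted p = 0.00435) and 1.47 ± 0.715 at 16 weeks (adjusted p = 0.0907), and from 8 to 16 weeks it was -1.36 ± 0.591 (adjusted p = 0.0977). The mean at 8 weeks was 14.2 ± 20.4 CPM (SD, n = 8), of which replicate 3 carried a large share: without it the mean was 7.08 ± 3.69 CPM (n = 7) and the log2 change against chow 1.83. At 16 weeks the call against chow depended on single libraries: S100a8 passed without chow replicate 5 (log2 change 2.41, adjusted p = 0.0129), and, with hardly any move in the change itself, without 8-week replicate 3 (1.47, adjusted p = 0.0161), a library that enters that comparison only through the shared estimate of the spread.

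S100a9 followed its partner. It stood at 1.62, 0.832, 4.42, 0.695 and 8.57 CPM on chow, and its lowest, median and highest values were 4.63, 11.7 and 57.0 CPM at 8 weeks and 4.32, 7.66 and 11.1 CPM at 16 weeks. Here too chow replicate 5 overlapped both diet groups, and 3 of the 8 16-week libraries exceeded it. The log2 changes against chow were 2.31 ± 0.625 at 8 weeks (adjusted p = 0.00463) and 1.30 ± 0.596 at 16 weeks (adjusted p = 0.0747), the latter passing without chow replicate 5 (2.08, adjusted p = 0.00846) or 8-week replicate 3 (1.29, adjusted p = 0.0204). Between the diet groups the change was -1.01 ± 0.497 (adjusted p = 0.143). The number of S100a8 reads per S100a9 read had medians of 0.658 on chow, 0.71 at 8 weeks and 0.636 at 16 weeks, so that the ratio of the pair moved far less than either gene. Its highest value, 1.12, was that of 8-week replicate 3.

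Csf3r (ENSMUSG00000028859, chr4:126024550-126044440, plus strand) had, in both diet groups, the smallest SD relative to its mean of the 8 genes. Its chow values were 2.10, 2.12, 3.51, 2.26 and 7.81 CPM. The lowest, median and highest values were 6.05, 12.5 and 17.1 CPM at 8 weeks and 11.5, 13.8 and 18.8 CPM at 16 weeks. All 8 16-week libraries and 7 of the 8 8-week libraries were above the highest chow library. The gene rose by 1.72 ± 0.305 on the log2 scale at 8 weeks (adjusted p = 0.000112) and by 2.0 ± 0.309 at 16 weeks (adjusted p = 1.4e-05), with 0.28 ± 0.247 between the diet groups (adjusted p = 0.433, 95% interval -0.203 to 0.765).

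Retnlg (ENSMUSG00000022651, chr16:48872621-48874496, plus strand) stood at 0.184, 0.230, 0.573, 0.261 and 1.18 CPM on chow. It reached 1.19, 2.51 and 11.3 CPM as lowest, median and highest values at 8 weeks and 1.85, 3.63 and 6.43 CPM at 16 weeks, and no diet library fell below the highest chow library. The log2 change was 2.87 ± 0.581 at 8 weeks (adjusted p = 0.000421) and 2.97 ± 0.581 at 16 weeks (adjusted p = 0.000208). The difference between the diet groups, 0.10 ± 0.430 with a 95% interval of -0.748 to 0.938, changed sign when 8-week replicate 1 or 6 or 16-week replicate 6 was left out. Without 8-week replicate 3 the 8-week mean went from 3.67 ± 3.35 to 2.59 ± 1.45 CPM.

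The 3 specific granule genes lie in order along chromosome 9, with 570129 bases between Camp and Ngp and 596258 between Ngp and Ltf. Ngp (ENSMUSG00000032484) is at chr9:110419747-110423012 on the plus strand, Camp (ENSMUSG00000038357) at chr9:109847379-109849617 on the minus strand and Ltf (ENSMUSG00000032496) at chr9:111019271-111042767 on the plus strand. Upstream sequence is shown for Ngp (chr9:110419558-110419746) and Ltf (chr9:111019042-111019270), the members whose counts relative to S100a8 differed with the smallest p between the diet groups. It comes from the same RefSeq table, ends where the GENCODE gene begins and has the C/EBP letters in capitals, which in Ltf match on the opposite strand.
Ngp: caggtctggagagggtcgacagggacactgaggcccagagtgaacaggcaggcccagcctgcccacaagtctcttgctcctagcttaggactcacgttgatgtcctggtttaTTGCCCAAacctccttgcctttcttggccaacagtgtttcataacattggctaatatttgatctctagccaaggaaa
Ltf: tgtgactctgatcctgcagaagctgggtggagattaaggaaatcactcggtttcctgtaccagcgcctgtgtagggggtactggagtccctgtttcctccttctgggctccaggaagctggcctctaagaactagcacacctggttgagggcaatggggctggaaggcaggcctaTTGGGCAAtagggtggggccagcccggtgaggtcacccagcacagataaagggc

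Ngp was near the limit of detection on chow, with counts of 1, 1, 5, 0 and 6 reads (0.0368, 0.0287, 0.169, 0 and 0.164 CPM). Its lowest, median and highest values were 0.0295, 0.303 and 1.11 CPM at 8 weeks and 0.310, 1.08 and 2.16 CPM at 16 weeks. Every 16-week library was above every chow library, and 7 of the 8 8-week libraries were. The log2 changes against chow were 2.25 ± 0.709 (adjusted p = 0.0127) and 3.73 ± 0.703 (adjusted p = 0.000138). Ngp was also higher at 16 than at 8 weeks, by 1.49 ± 0.491 (adjusted p = 0.0362), with 3 of 8 16-week libraries above the highest 8-week library. That last call was lost when 8-week replicate 2, 4 or 5 or 16-week replicate 5, 6 or 8 was left out (adjusted p from 0.0547 to 0.0881), while the change stayed between 1.27 and 1.79 over all 21 omissions.

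Ltf had 9 reads over the 5 chow livers, at 0.0368, 0.0287, 0.101, 0.0290 and 0.0822 CPM. It ran through 0.149, 0.412 and 2.29 CPM (lowest, median, highest) at 8 weeks and 0.511, 0.748 and 1.80 CPM at 16 weeks. No diet library overlapped chow. Ltf rose by 3.39 ± 0.694 at 8 weeks (adjusted p = 0.000469) and by 3.96 ± 0.686 at 16 weeks (adjusted p = 5.66e-05). The difference between the diet groups was 0.56 ± 0.445 (adjusted p = 0.377) and became 1.12 (adjusted p = 0.0221) without 8-week replicate 3.

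Camp had the largest adjusted p among the calls against chow. It had 1, 2, 0, 0 and 3 reads in the chow livers (0.0368, 0.0574, 0, 0 and 0.0822 CPM). At 8 weeks it ran from 0 through a median of 0.122 to 1.04 CPM, and at 16 weeks from 0.0526 through 0.261 to 0.531 CPM, so that both diet groups overlapped chow. Its log2 changes were 2.44 ± 0.913 (adjusted p = 0.0309) and 2.89 ± 0.876 (adjusted p = 0.00859). The 8-week call was lost without chow replicate 1, 3 or 4 or 8-week replicate 3 (adjusted p from 0.0539 to 0.0733), and without that last library the change was 1.79.

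Mpo (ENSMUSG00000009350, chr11:87793581-87804413, plus strand) had 5 reads over the chow group: 0, 0, 2, 1 and 2, or 0, 0, 0.0675, 0.0290 and 0.0548 CPM. It ran through 0.0795, 0.180 and 0.834 CPM at 8 weeks and 0.164, 0.403 and 1.42 CPM at 16 weeks, and every diet library was above every chow library. The log2 changes were 3.08 ± 0.813 (adjusted p = 0.00388) and 4.0 ± 0.785 (adjusted p = 0.000213), and between the diet groups 0.92 ± 0.491 (adjusted p = 0.178). The annotated gene Gm11505 overlaps Mpo on the other strand. The libraries were stranded, but no source used here says whether counting took strand into account, and if not, reads of the 2 genes cannot be told apart.

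**Figure D2:**
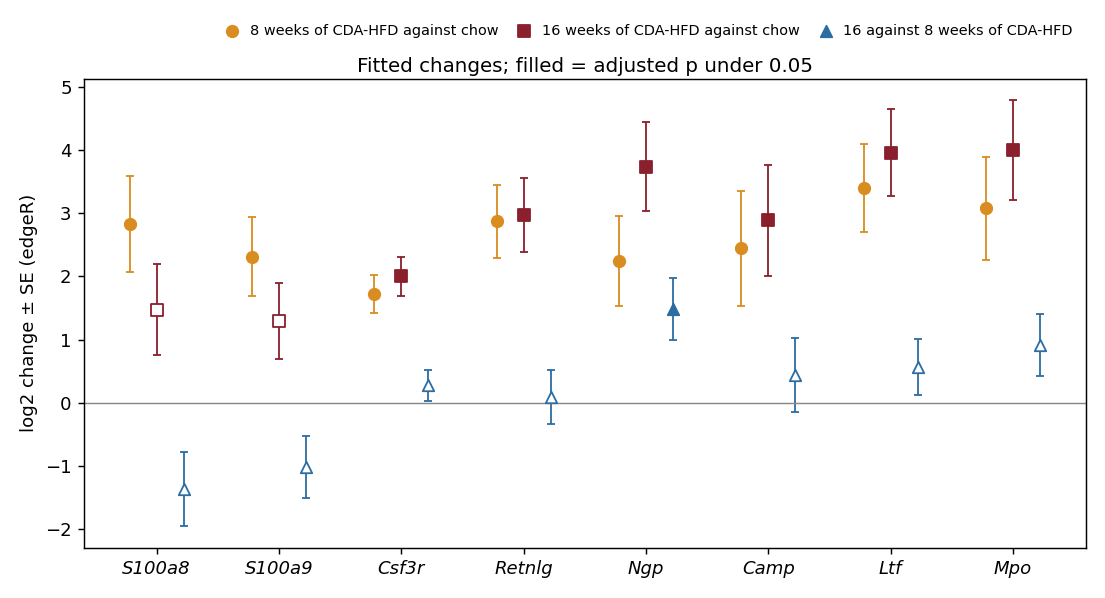
Fitted log2 change with its SE for each gene in the 3 comparisons (edgeR), with filled symbols for an adjusted p under 0.05. The granule genes Ngp, Camp, Ltf and Mpo have higher estimates at 16 than at 8 weeks against chow, S100a8 and S100a9 lower ones.

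Separation from chow was also counted by library. In 3 of the 8 genes (Retnlg, Ltf, Mpo) every 8-week library exceeded every chow library, a pattern shown by 15.3% of all genes tested, and in 5 of 8 (those 3 with Csf3r and Ngp) every 16-week library did, against 27.2% of all genes. Ngp, Ltf and Mpo passed the filter on low counts through the diet libraries, so their separation from chow is not independent of it. None of the 8 had every 16-week library above every 8-week library, which 2.58% of all genes had. The chow group was itself uneven: replicates 3 and 5 exceeded replicates 1, 2 and 4 in 7 of the 8 genes, all but Camp. This split was noticed in the values themselves, and its share over all genes tested was not computed. In Mpo and Ltf it rests on 0 to 3 reads a library. Chow replicate 5 also held the muscle transcripts named above, and their part in these values was not tested. The same 2 livers were high in Lcn2 (lipocalin 2, of specific granules and of stressed hepatocytes), at 52.8 and 177.0 CPM against 10.1, 4.22 and 3.01 CPM, and in the neutrophil attractant Cxcl1, at 17.0 and 55.1 CPM against 4.23, 2.58 and 5.27 CPM. Without both livers, a choice made after the values were seen, S100a8 and S100a9 passed at 16 weeks (log2 changes of 3.19 and 2.93, adjusted p = 0.00635 and 0.00156) and Camp no longer passed at 8 weeks (2.67, adjusted p = 0.0752).

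The counts of 5 members relative to S100a8 differed between the diet groups. Relative to S100a8 in the same library, Ngp was higher at 16 than at 8 weeks by 2.34 on the log2 scale, Mpo by 1.59, Ltf by 1.54, Camp by 1.5 and Retnlg by 1.01. The ratios need no scaling between libraries, but with 0.5 added to both counts they shift with depth where reads are few, as for Camp (0 to 15 reads at 8 weeks), Mpo (3 to 24) and Ngp (1 to 30). Exact two-sided permutation tests over the 16 diet libraries gave p-values, adjusted over the 7 ratios, of 0.00109 for Ngp and Ltf, 0.0204 for Mpo and Camp and 0.0138 for Retnlg. The ratio of Csf3r to S100a8 was higher by 1.0 (adjusted p = 0.093, exact test) and that of S100a9 to S100a8 by 0.0466 (adjusted p = 0.771, exact test). These tests were chosen after the values were seen. All 7 ratios share S100a8 as their denominator, so the tests are not independent of one another. S100a8 by itself had a change of -1.36 between the diet groups (adjusted p = 0.0977, edgeR). Of the genes set against it, Ngp alone passed by itself in that comparison. For Ltf the ratio to S100a8 ran from -4.83 to -3.32 at 8 weeks and from -3.46 to -1.67 at 16 weeks, and for Ngp from -5.80 to -3.46 and from -3.91 to -1.33, so that the groups overlapped at their edges. Without 8-week replicate 3 the 5 ratios remained higher, by 2.19 for Ngp, 1.46 for Ltf, 1.44 for Mpo, 1.49 for Camp and 0.873 for Retnlg (adjusted p from 0.00272 to 0.0385, exact tests).

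**Figure D3:**
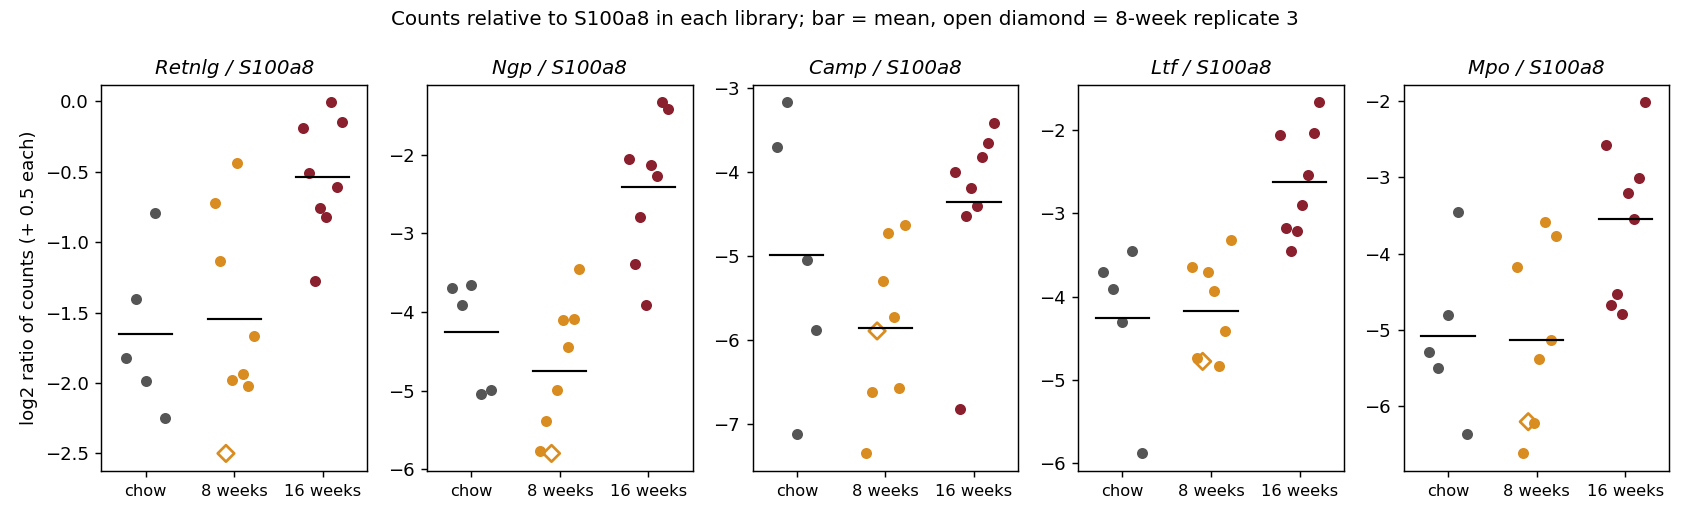
Log2 ratio of the count of each gene to the count of S100a8 in the same library, with 0.5 added to both counts and the group mean as a bar. The 16-week means lie above the 8-week means in all 5 panels, by 2.34 for Ngp and 1.01 for Retnlg, and the chow ratios of the granule genes rest on 0 to 6 reads a library.

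By TMM-adjusted CPM, replicate 3 of the 8-week group was the highest of all 21 libraries in 5 of the 8 genes. These were S100a8, S100a9, Retnlg, Camp and Ltf. In Csf3r this library was the lowest of its group. It held 10.6 S100a8 reads per Csf3r read, while the other 7 8-week libraries held 0.259 to 1.07, the chow libraries 0.205 to 0.723 and the 16-week libraries 0.245 to 0.647. Ly6g, a surface marker of mouse neutrophils, had 0 reads in it and Cxcr2, the chemokine receptor of mature neutrophils, 0.556 CPM, the lowest of its group, but Ly6g had only 19 reads over all 8 libraries. Other neutrophil genes were highest of the group in the same library: Elane at 1.32 CPM against 0.173 to 0.322 CPM in the others, Pglyrp1 at 19.8 CPM against 0.737 to 2.82 CPM, and Il1r2 at 3.96 CPM against 0.236 to 1.14 CPM. Scaled to plain total counts, S100a8 was still highest there at 31.6 CPM, against 2.12 to 11.9 CPM in the rest of the group. S100a9 also stayed the highest, at 28.2 CPM. Retnlg, Camp and Ltf did not, at 5.58, 0.517 and 1.14 CPM. On that scale 16-week replicate 8 exceeded them, at 6.73, 0.688 and 2.33 CPM. The same library held the highest sum of squamous epithelium transcripts, 1752 CPM (Krt13, Krt4 and 10 others, of which Crnn was at 0 in all libraries), and the highest sum of 8 monocyte and macrophage genes, 6280 CPM against 1137 to 2481 CPM in the other 8-week libraries. Squamous epithelium and monocytes can both express S100a8 and S100a9, and their part in these values was not tested. In the other 4 libraries with over 70 CPM of squamous transcripts S100a8 stood between 2.81 and 4.80 CPM. The remaining diet libraries, 8-week replicate 3 aside, held 2.39 to 12.2 CPM of S100a8. The 2.81 CPM of 16-week replicate 7 was the lowest value of its group. With all 5 libraries left out, S100a8 and S100a9 passed at 16 weeks against chow (log2 changes of 1.69 and 1.47, adjusted p = 0.0158 and 0.0215, edgeR). At 16 against 8 weeks 3 of the 8 genes were then higher (Ngp, Ltf and Mpo), and of all genes called there 52.7% were higher.

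**Figure D4:**
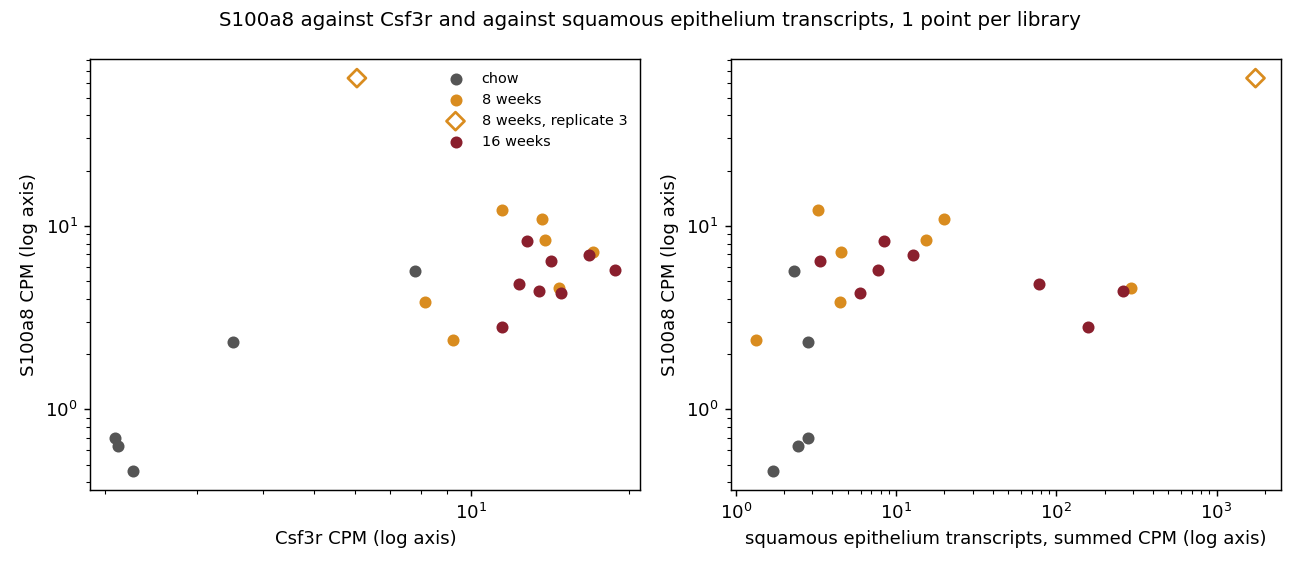
S100a8 against Csf3r (left) and against the summed squamous epithelium transcripts (right), in CPM on log axes with 1 point per library. The 8-week replicate 3 (open diamond) has 63.9 CPM of S100a8 beside 6.05 CPM of Csf3r and 1752 CPM of squamous transcripts, while the other diet libraries lie between 2.39 and 12.2 CPM of S100a8.

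Per kilobase of exon, S100a9 was the most abundant of the 8 transcripts in every group, with means of 6.18 ± 6.41 CPM per kb on chow, 31.0 ± 32.6 at 8 weeks and 15.2 ± 3.89 at 16 weeks, and it exceeded S100a8 in every library. S100a8 came next at 2.81 ± 3.16, 20.4 ± 29.4 and 7.87 ± 2.5 CPM per kb. Retnlg and Csf3r followed without a firm order: on chow Csf3r was higher in 5 of 5 libraries, at 8 weeks Retnlg was higher in 4 of 8 and at 16 weeks in 6 of 8, and S100a8 exceeded Retnlg in only 5 of 8 libraries at 16 weeks. The granule genes were lowest. At 16 weeks they ran from Ngp at 0.896 ± 0.44 through Camp at 0.381 ± 0.199 and Ltf at 0.261 ± 0.122 to Mpo at 0.156 ± 0.116 CPM per kb, each step holding in 7 or 8 of 8 libraries, whereas at 8 weeks Ngp exceeded Camp in 5 of 8.

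Other neutrophil genes from 4 lists gave 26 further genes, of which 19 were tested. At 8 weeks 16 of the 19 rose and 0 fell, with a median log2 change of 1.61, and at 16 weeks 13 rose and 0 fell, with a median of 1.43. Of all genes tested 30.8% were higher at 8 weeks and 29.4% at 16 weeks. Between 16 and 8 weeks 1 of the 19 rose and 4 fell, where 10.6% of all genes rose and 11% fell. Without 8-week replicate 3 these counts were 15, 14 and, between the diet groups, 2 higher and 4 lower. Among specific and gelatinase granule genes, Lcn2 rose by 3.90 ± 0.789 at 8 weeks (adjusted p = 0.000418) and by 2.96 at 16 weeks, the bactericidal Pglyrp1 by 3.83 and 2.99, and Cd177, a surface protein of neutrophils, by 2.58 and 2.21. Mmp9, gelatinase B, rose by 0.93 at 8 weeks and had 0.68 at 16 weeks (adjusted p = 0.0813).

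Of the 3 azurophil granule genes tested, Mpo alone was called against chow at either time. Without chow replicates 3 and 5, where Prtn3 stood at 2.02 and 4.14 CPM against 0.331 to 0.373 CPM in the other chow livers, 2 of the 3 were higher at 8 weeks, with a median of 2.82 in place of 0.80, and 1 of 3 at 16 weeks. Elane (neutrophil elastase) had 0.197 ± 0.156 CPM on chow, 0.378 ± 0.384 at 8 weeks and 0.280 ± 0.123 at 16 weeks, with log2 changes of 0.80 (adjusted p = 0.213) and 0.51 (adjusted p = 0.441). Prtn3 (proteinase 3) had 1.44 ± 1.67, 2.51 ± 1.79 and 0.680 ± 0.193 CPM and fell from 8 to 16 weeks by 1.88 on the log2 scale (adjusted p = 0.0112). The gene Plppr3 overlaps Prtn3 on the other strand, and Plppr3 was itself among the 5 genes most alike to S100a9, so that Prtn3 and Plppr3 reads cannot be told apart if counting ignored strand. Ctsg (cathepsin G), too low to test, had 0 reads on chow, 9 at 8 weeks and 34 at 16 weeks, which is at least 6.05-fold higher at 16 weeks against a floor of 3 counts over the chow group. Of the precursor markers, Ms4a3 had 0 reads on chow and at 8 weeks and 12 over 6 libraries at 16 weeks, at least 2.14-fold above the same floor, and Fcnb had 0, 6 and 16 reads. Such floors cover counting error only.

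Markers of the mature cell were mixed. Ly6g had 3 reads on chow, 19 at 8 weeks and 23 at 16 weeks. Its ratio to chow was 4.11 (exact 95% counting interval 1.21 to 21.7) and 4.09 (1.24 to 21.3). These intervals cover counting error only, not the spread between livers. In the edgeR test without the filter on low counts, Ly6g did not pass at 8 weeks (adjusted p = 0.171) or 16 weeks (adjusted p = 0.27). Cxcr2 had log2 changes of 0.71 (adjusted p = 0.198) and 0.74 (adjusted p = 0.182), with chow replicate 5 at 2.11 CPM near the top of the diet range. Clec4d, a lectin that monocytes also express, rose by 6.48 and 6.44. The formyl peptide receptor Fpr1 rose by 0.98 at 8 weeks (adjusted p = 0.00163), stood at 0.18 at 16 weeks (adjusted p = 0.533) and fell between them by 0.80 (adjusted p = 0.00782). Padi4, which citrullinates histones in neutrophils, rose by 1.42 and 2.26 and was higher at 16 than at 8 weeks by 0.84 (adjusted p = 0.0122).

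**Figure D5:**
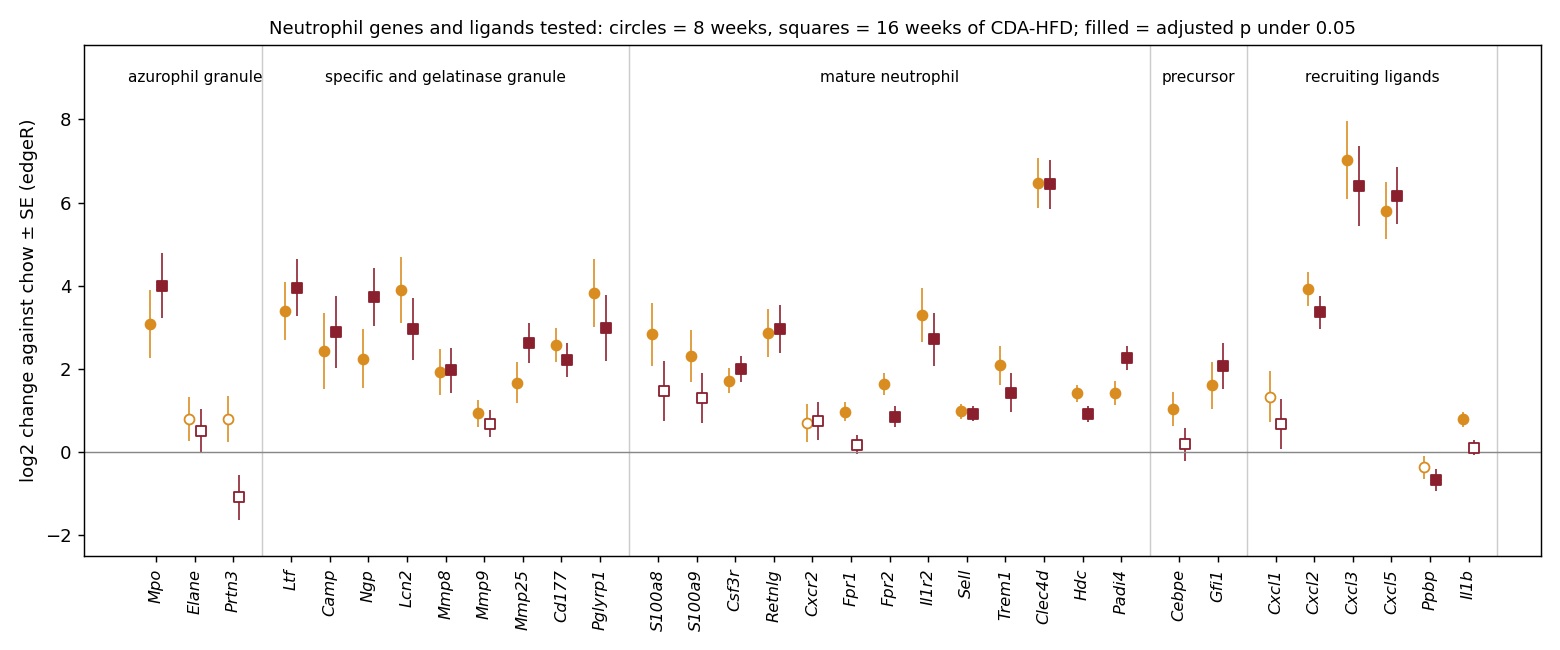
Fitted log2 change against chow with its SE for the tested neutrophil genes and recruiting ligands after 8 weeks (circles) and 16 weeks (squares), filled where the adjusted p was under 0.05. In the azurophil group Mpo has 3.08 and 4.0, Elane 0.80 and 0.51, and the Cxcl3 estimates set a gene without chow reads against 0 and are no bound.

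Ligands that recruit neutrophils or lengthen their life were measured beside the receptors. Of 10 such genes 6 were tested, and 4 rose at 8 weeks (Cxcl2, Cxcl3, Cxcl5, Il1b) and 3 at 16 weeks (Cxcl2, Cxcl3, Cxcl5), while Ppbp fell at 16 weeks by 0.68 (adjusted p = 0.0361), a call lost without the filter on low counts (adjusted p = 0.0974) and without chow replicates 3 and 5. Without 8-week replicate 3, 5 rose at 8 weeks. In the fit of all 21 libraries 30.8% of all genes tested were higher at 8 weeks and 29.4% at 16 weeks. Cxcl2 rose from 0.226 ± 0.118 CPM to 3.51 ± 1.4 at 8 weeks and 2.40 ± 0.317 at 16 weeks, and Cxcl5 from 0.0383 ± 0.0857 to 2.51 ± 1.22 and 3.22 ± 1.19. Cxcl3 had 0 reads on chow and 111 and 109 in the diet groups, at least 24.0-fold and 19.4-fold higher against the floor. Cxcl1 had log2 changes of 1.33 (adjusted p = 0.0752) and 0.68 (adjusted p = 0.367), with 55.1 CPM in chow replicate 5. Csf3, which encodes the ligand of Csf3r, had 0 reads on chow, 0 at 8 weeks and 6 at 16 weeks, too few to follow at this depth.

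Adhesion molecules that slow neutrophils on the vessel wall rose at both times in 3 of 3 cases: E-selectin (Sele) by 2.58 and 3.04, P-selectin (Selp) by 0.79 and 0.87, and Icam1 by 1.39 and 1.34 on the log2 scale. Of 4 genes for receptors of calprotectin, Tlr4 and Ly96 rose at both times, by 0.69 and 1.15 and by 0.62 and 0.47, Ager passed at 16 weeks (1.37, adjusted p = 0.0456) and Bsg at neither (0.18 and -0.06). All 6 genes of the phagocyte NADPH oxidase rose at both times, with medians of 2.74 and 2.90, led by Cyba at 3.75 and 3.44. Macrophages use the same oxidase, and 8 of 8 monocyte and macrophage genes rose at 8 weeks and 7 of 8 at 16 weeks. Lyz2 rose by 4.16 and 4.19 and Ccr2 by 2.93 and 3.33. All these counts stand beside 30.8% of all genes tested that were higher at 8 weeks and 29.4% at 16 weeks. The summed monocyte and macrophage transcripts were 321.0 to 439.7 CPM on chow, 1137 to 6280 CPM at 8 weeks and 1722 to 2769 CPM at 16 weeks, and their part in the S100a8 and S100a9 values was not tested.

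Within the diet groups 29 relations between members, partners and marker sums were computed over 8 libraries each, with exact permutation p-values adjusted over the 29. S100a8 and S100a9 rose and fell together at 8 weeks (Pearson r = 0.99, adjusted p = 0.00432; Spearman rho = 0.952, adjusted p = 0.0324; r = 0.942 without the 2 libraries farthest from the median of S100a8) and at 16 weeks (r = 0.869, adjusted p = 0.029, rho = 0.857, adjusted p = 0.0518, and r = 0.815 without 2, exact tests). The relation of S100a8 to Csf3r did not pass, with r = -0.385 at 8 weeks (adjusted p = 0.397, exact test) and 0.537 without 8-week replicate 3, and r = 0.439 at 16 weeks (adjusted p = 0.323). Mpo and Elane had r = 0.956 at 16 weeks (adjusted p = 0.00527, rho = 0.905, adjusted p = 0.0441, and r = 0.866 without 2, exact tests), but at 8 weeks r was 0.658, 0.0623 without replicate 3 and -0.663 without the 2 farthest libraries. Camp and Ltf had r = 0.912 at 8 weeks (adjusted p = 0.00964, exact test; rho = 0.881, adjusted p = 0.0518; r = 0.811 without 2), or 0.796 without replicate 3, and r = 0.548 at 16 weeks. In all 9 relations passed by Pearson r and 3 by Spearman rho, and 5 passed by Pearson r when 8-week replicate 3 was left out.

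S100a8 had no passing relation to the squamous sum (r = 0.677 at 8 weeks, adjusted p = 0.142, and -0.66 at 16 weeks, adjusted p = 0.142, exact tests), and its 8-week value fell to 0.144 without replicate 3. Retnlg followed the summed erythroid transcripts at 8 weeks (r = 0.914, adjusted p = 0.00527, rho = 0.929, adjusted p = 0.0324, r = 0.746 without 2, exact tests), and r was 0.832 without replicate 3 (adjusted p = 0.0465, exact test). At 16 weeks the same pair had r = -0.233 (adjusted p = 0.584, exact test). The erythroid sum of 7 genes ran from 161.6 to 1131 CPM at 8 weeks and from 88.8 to 207.3 CPM at 16 weeks. Of these genes Alas2 had the highest level in most libraries and the globin Hbb-bs (579.1 CPM against 267.6 for Alas2) in 8-week replicate 3. The gene Apex2 overlaps Alas2 on the other strand, so their reads cannot be told apart if counting ignored strand. The part of blood held in the tissue was not tested.

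The genes most like each member were found by the Spearman rho of group-centred log2 CPM over the 16 diet libraries, among 14983 genes with a mean of at least 0.5 CPM, as a description of libraries that share depth and scaling. Ngp was closest to Mpo (rho = 0.765), Camp (0.747), Ptpn1 (0.741), Ltf (0.741) and Ceacam16 (0.712), so that 3 of its 5 nearest were other members. S100a9 was near to Calml4 (0.971), S100a8 (0.941), Ifitm6 (0.924) and Plppr3 (0.921). S100a8 itself was near to Plpp2 (0.959), Ten1 (0.956), Tspan4 (0.95) and the monocyte receptor gene Cd14 (0.95). Ltf had Hoxb3os (0.871), Ifitm6 (0.847), S100a9 (0.806), Mmp9 (0.803) and Ptger1 (0.8), and Camp had Rn7sk (0.794), Ltf (0.785), Malat1 (0.762), Gm15348 (0.753) and Ngp (0.747).

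Nearest to Retnlg were Ltb4r1, a leukotriene B4 receptor of neutrophils (0.894), Itpka (0.85), Wdr54, B330016D10Rik and Ifitm6 (0.847 each). Itpka dropped to 0.618 without 8-week replicate 3. Csf3r had Foxred2 (0.962), Lgi2 (0.947), Inpp5d (0.944), Ptgfrn (0.944) and Rassf2 (0.941). The 5 nearest to Mpo held no other neutrophil gene of the lists: Stab1 (0.926), Nav1 (0.909), Hspg2 (0.9), 1700025G04Rik (0.885) and Adgrl1 (0.876).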

How the data were processed

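Column-purified total RNA of liver went into 21 stranded libraries, per the labels. The deposited values are whole-number counts for each Ensembl gene, not normalized. The submitters' processing notes name the build GRCm38. The sources used here name no aligner, counter or strand setting. All 21 separate count files equalled the columns of the series table.

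Gene names and positions were taken from GENCODE M21, with a symbol for 52403 of 52636 IDs, and promoters from RefSeq (8 of 8 members matched by symbol). The filter filterByExpr kept 17104 genes. Libraries were scaled with TMM, and all 21 entered 1 edgeR 4.0.16 quasi-likelihood fit (R 4.3.3) with 3 contrasts and Benjamini-Hochberg adjustment at 0.05. Intervals of log2 changes are at 95%, from the SE. Relations used log2 CPM with a prior count of 2, ratios a pseudocount of 0.5, and both exact permutation tests (scipy 1.17.1). Genes described are the 8 members, genes of fixed lists and the 5 nearest genes per member, of which 1 gene is not reported here. Any pair of libraries of a group differed by at least 19.4 chi-square units per degree of freedom (66 pairs), so none was a duplicate. The labels do not say that each library is a separate animal, so p-values measure the spread between these samples, which may be technical.

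Members and lists were chosen with earlier results of these data known. Alternatives were DESeq2 1.42.0 (size factors, Wald test), total counts, other filters, 2-group fits, libraries left out and, chosen after seeing the values, chow replicates 3 and 5 left out. The fit was also run on counts simulated from its own dispersion estimates. Such counts hold no library that stands apart, so they cannot tell how the fit treats one.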

Additional observations from a re-analysis of the deposited data

Results flagged for a closer look

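Within groups, 24 sets of values (8 genes in 3 groups) were searched for a library far from the rest by Dixon's criterion, and 8 stood out. Chance gives about 1 in 20 for normally distributed values. The search used CPM without a log, partly from few reads, so that rate need not hold here. Replicate 3 of the 8-week group was far above the others in S100a8 (63.9 CPM), S100a9 (57.0 CPM), Retnlg (11.3 CPM), Camp (1.04 CPM) and Ltf (2.29 CPM). Those 5 values come from 1 library and share its adjustment factor, so they are not independent. Scaled to plain total counts, Retnlg there was 5.58 CPM against 5.43 CPM in 8-week replicate 2. Replicate 8 of the 16-week group was far above its group in Ltf (1.80 CPM) and Mpo (1.42 CPM), and was also the highest of all 21 libraries in Csf3r, Ngp and Mpo. Chow replicate 5 was far above the other chow livers in Csf3r (7.81 CPM).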

How the results depend on the processing

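Of the calls against chow, those of Csf3r, Retnlg, Ngp, Ltf and Mpo at both times, of S100a8 and S100a9 at 8 weeks and of Camp at 16 weeks held under every alternative that tested the gene. Camp and Mpo were not tested at 8 weeks when only those 2 groups were fitted. At a mean of 1 CPM only 4 members were tested, and 4 were higher at 8 weeks, 2 at 16 weeks and 0 between the diet groups. Of all genes called under that filter, 59.1%, 53.9% and 45.6% were higher in these 3 comparisons. Camp at 8 weeks lost its call in 7 of 29 alternatives, and S100a8 and S100a9 at 16 weeks gained theirs in 8 of 31, among them total counts (adjusted p = 0.0101 and 0.00643), the DESeq2 Wald test (0.0493 and 0.0458) and the fit of 2 groups (0.0194 and 0.0299). Between 16 and 8 weeks 3703 genes were called, 2226 with only those groups fitted, 5579 without the 5 libraries highest in squamous transcripts and 2248 to 5132 with 1 library left out. Members higher there numbered 3 with total counts, 3 without those 5 libraries and 2 without 8-week replicates 3, 4 and 5. With 1 library left out they numbered 0 to 2. Of all genes called there, 94.8% were higher with total counts, against 49% in the main fit. The share was 52.7% without those 5 libraries and 64.1% without those 8-week replicates. With total counts the median change of all genes was 0.377. Ltf and Mpo passed with total counts (1.15 and 1.38, adjusted p = 0.03 and 0.0364), and S100a8 passed downward under DESeq2 (-1.43, adjusted p = 0.0491). The Retnlg change between the diet groups was -0.02451, -0.04 and -0.05164 without 8-week replicate 1, 8-week replicate 6 and 16-week replicate 6, within a range of -0.05164 to 0.5808. Without 8-week replicate 3, 5 relations passed, S100a8 with Csf3r turned to r = 0.537, S100a9 and Ltf with the squamous sum to -0.0637 and -0.19, and the ratio of S100a9 to S100a8 differed by -0.0506. The cause was not tested. No paired analysis was possible because the replicate numbers follow listing order and pair no animals. Depth limits Mpo, Ltf, Camp and Ngp on chow, with 5, 9, 6 and 13 reads over the group.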
